A study of Mus musculus with 22 samples.

Results

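The translation initiation factor genes are the genes that encode the proteins bringing the ribosome, the initiator tRNA and an mRNA together at the start codon. They were taken as every row of the deposited expression table whose gene name begins with Eif1 to Eif6, leaving out the eIF2 kinase genes (Eif2ak), the Argonaute genes once named Eif2c, and Eif4a3, Eif2s3x and Eif2s3y, which gave 48 of 22330 genes. Their RNA was measured in mouse embryonic stem cells that lack NF45, NF110, or NF90 and NF110 together. NF45, the product of Ilf2, partners with the RNA-binding proteins NF90 and NF110. The groups with a knockout came with their own wild type. NF45 KO (n = 2) and NF45 WT (n = 2) cells gave poly(A)-selected stranded libraries, and the file headers name the NF45 WT columns Rev, a term that the sources used here do not explain. The other knockouts, NF110 KO and NF90+NF110 KO, and their NF90/NF110 WT gave stranded libraries made after ribosomal RNA depletion, with 3 libraries of input RNA and 3 of RNA immunoprecipitated (IP) with an antibody against NF90/NF110 for each genotype. The double knockout lacks both targets of the antibody, so its IP shows what the beads and antibody bring down without them. All cells were grown in serum medium with 1000 U LIF, 1 µM PD0325901, a MEK inhibitor, and 3 µM CHIR99021, a GSK3 inhibitor. The sources do not say whether replicates came from separate clones or cultures, so the p-values reflect only how far these libraries differ, which may be technical.

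Initiation begins when eIF2, carrying GTP and the initiator tRNA, joins the small ribosomal subunit with eIF1, eIF1A, eIF3 and eIF5. The mRNA cap is bound by eIF4E, which together with the scaffold eIF4G and the helicase eIF4A forms the cap-binding complex that loads this subunit onto the mRNA. After start codon recognition eIF2 leaves with GDP and is recharged by the exchange factor eIF2B, while eIF5B joins the large subunit. The eIF4E-binding proteins block the contact between eIF4E and eIF4G and are switched off by mTORC1, and phosphorylation of the alpha subunit of eIF2 turns eIF2 into an inhibitor of eIF2B. By role the 48 genes were split into 7 genes of start codon selection and subunit joining, 4 of eIF2 and initiator tRNA delivery, 5 of eIF2B, 14 of eIF3, 11 of eIF4 cap binding and helicase, 4 eIF4E-binding genes, and 3 of eIF5A and eIF6.

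The NF45 libraries held 49.1 to 68.8 M reads assigned to genes, the inputs 9.53 to 11.9 M reads and the IPs 14.1 to 19.0 M reads. Ilf2 was at 3.92 and 3.79 FPKM (fragments scaled for transcript length and sequencing depth) in NF45 KO libraries, against 264 and 308 FPKM in NF45 WT libraries. For the NF110 KO, NF90+NF110 KO and WT libraries the directions below rest on the labels. The summed FPKM of 8 embryonic stem cell markers was 3822 to 5271 per library, and that of 6 fibroblast markers 0.886 to 6.81. A summed neural marker level moved with genotype (8.47 to 8.64 FPKM in NF45 KO, against 19.6 to 19.8 FPKM in NF45 WT, and 12.7 to 15.5 FPKM in NF90+NF110 KO inputs, against 19.4 to 21.0 FPKM in WT inputs), and its part in the results was not tested. Among its 3 genes Pax6 was below 1 FPKM in every library. Other sums also differed. Stem cell markers were at 5067 to 5271 FPKM in NF45 KO, against 4371 to 4821 FPKM in NF45 WT. Fibroblast markers were at 1.76 to 1.78 FPKM in NF45 KO, against 0.886 to 1.05 FPKM in NF45 WT. Primitive endoderm markers were at 4.66 to 5.29 FPKM in NF90+NF110 KO inputs, against 2.15 to 4.15 FPKM in WT inputs. The part of these was not tested either. In bulk RNA, fewer cells of a kind and less RNA per cell cannot be told apart. The median level of chromosome 6 genes also differed between libraries. After centring it was -0.24 to -0.25 on the log2 scale in NF45 KO, against 0.24 to 0.27 in NF45 WT, and among the inputs it was above 0 in NF110 KO replicates 1 and 2, NF90+NF110 KO replicate 2 and WT replicate 1 and below 0 in the other 5. Eif4e3 is the only member on chromosome 6. Among the inputs the levels of other chromosomes, such as chromosome 8 with Eif4ebp1, were not compared.

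The initiation factors were among the more abundant transcripts of these cells. The median member had 140.9 FPKM in NF45 KO libraries, against 131 FPKM in NF45 WT libraries, while genes at 1 FPKM or more had medians of 13.7 and 14.6 FPKM. In inputs the median member had 70.3 FPKM in NF110 KO, 82.8 FPKM in NF90+NF110 KO and 83.0 FPKM in WT, with medians of 12.8, 12.3 and 12.8 FPKM over all genes at 1 FPKM or more. Levels covered a wide range within the family. Eif5a, whose product carries the hypusine modification and helps peptide bond formation, led the poly(A) libraries with 688 and 746 FPKM in NF45 KO and 691 and 763 FPKM in NF45 WT. In every rRNA-depleted group the leader was Eif4ebp1, a repressor of eIF4E, at 1123, 1259 and 1231 FPKM in NF110 KO inputs, 1081, 1150.0 and 1091 FPKM in NF90+NF110 KO inputs and 979, 917 and 849 FPKM in WT inputs. The order thus differed between the 2 kinds of library, which were prepared with different kits and were not tested against each other.

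**Figure D1:**
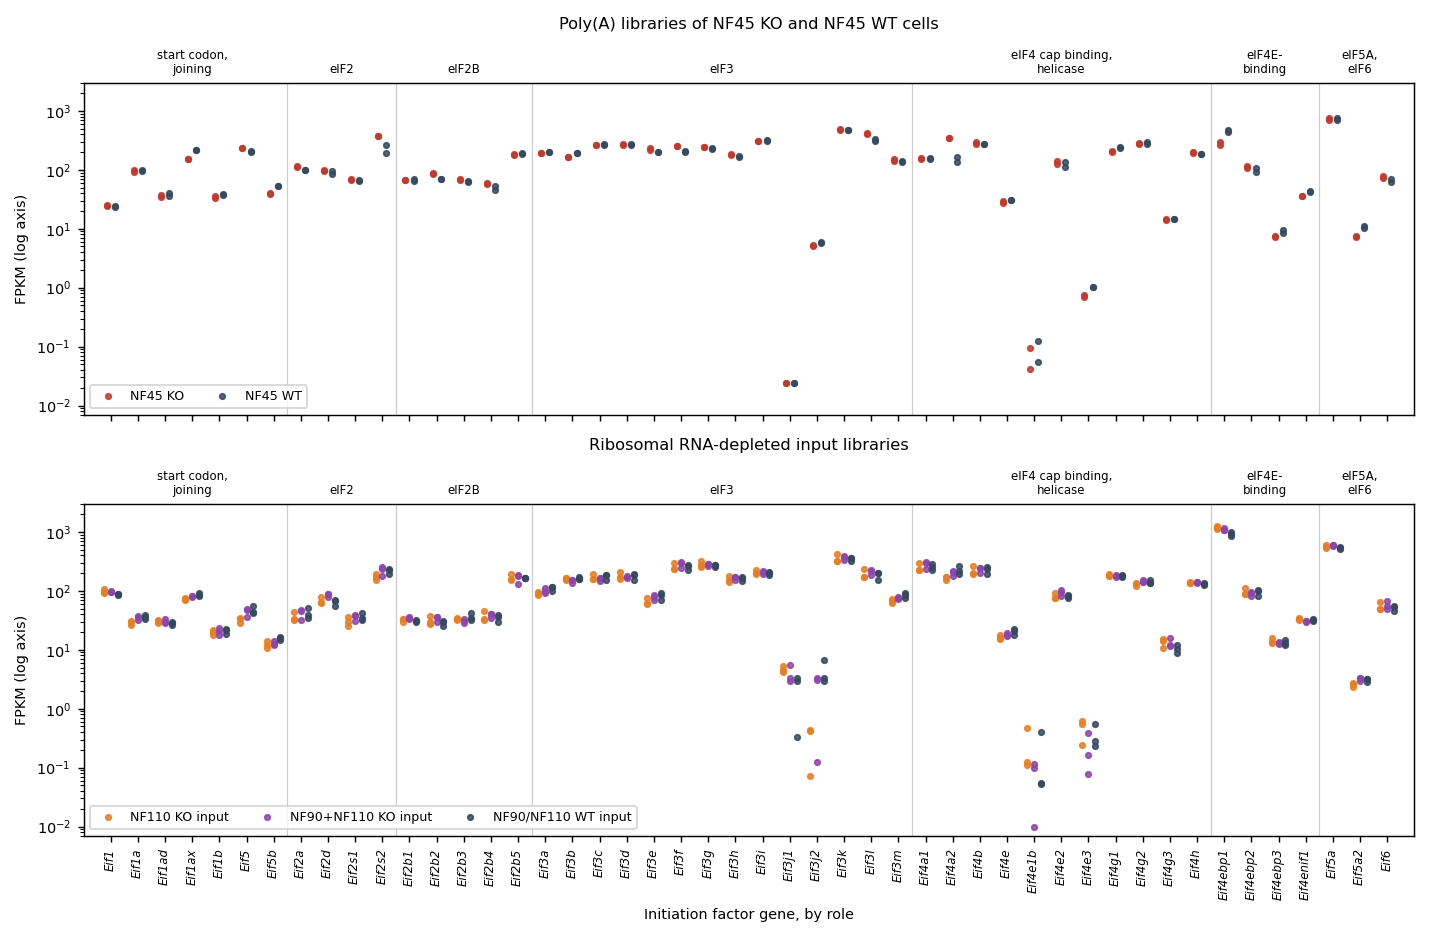
FPKM of the 48 initiation factor genes (log axis) in each NF45 KO and NF45 WT library (top) and each input library (bottom), by role; 1 point is 1 library and a value of 0 is drawn at 0.01. Most members lie between 10 and 1000 FPKM, while Eif4e1b and Eif4e3 reach at most 1.03 FPKM in any library and Eif3j1 and Eif3j2 change places between libraries.

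Levels also differed within each role. Eif3k was the highest eIF3 subunit gene, with 478 and 489.5 FPKM in NF45 KO and 470.0 and 472 FPKM in NF45 WT libraries. Eif2b5, which encodes the catalytic epsilon subunit of eIF2B, was at 181 and 185 FPKM in NF45 KO and 183 and 193 FPKM in NF45 WT libraries, and each of the other 4 eIF2B subunit genes was below its level in every group. Among cap-binding proteins Eif4e2, a homologue of eIF4E that can repress translation, had 128 and 143 FPKM in NF45 KO and 113 and 134 FPKM in NF45 WT libraries. Eif4e itself had 27.6 and 29.6 FPKM in NF45 KO and 30.9 and 30.6 FPKM in NF45 WT libraries. Eif4e1b, known as an oocyte form of the cap-binding protein, was between 0 and 0.474 FPKM in all RIP-seq libraries and 0.042 to 0.123 FPKM in the NF45 libraries, and Eif4e3 was at 0.683 and 0.765 FPKM in NF45 KO against 1.02 and 1.03 FPKM in NF45 WT. Eif3j1 and Eif3j2 are near-identical copies of the gene for the j subunit of eIF3, and the deposited values split them differently between libraries. In WT inputs Eif3j1 had 3.27, 2.93 and 0.327 FPKM and Eif3j2 had 3.28, 2.94 and 6.75 FPKM, while their sum was 6.54, 5.87 and 7.08 FPKM. The single values of the pair are therefore uncertain, and the sum was also tested, an alternative added after seeing the data.

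**Figure D2:**
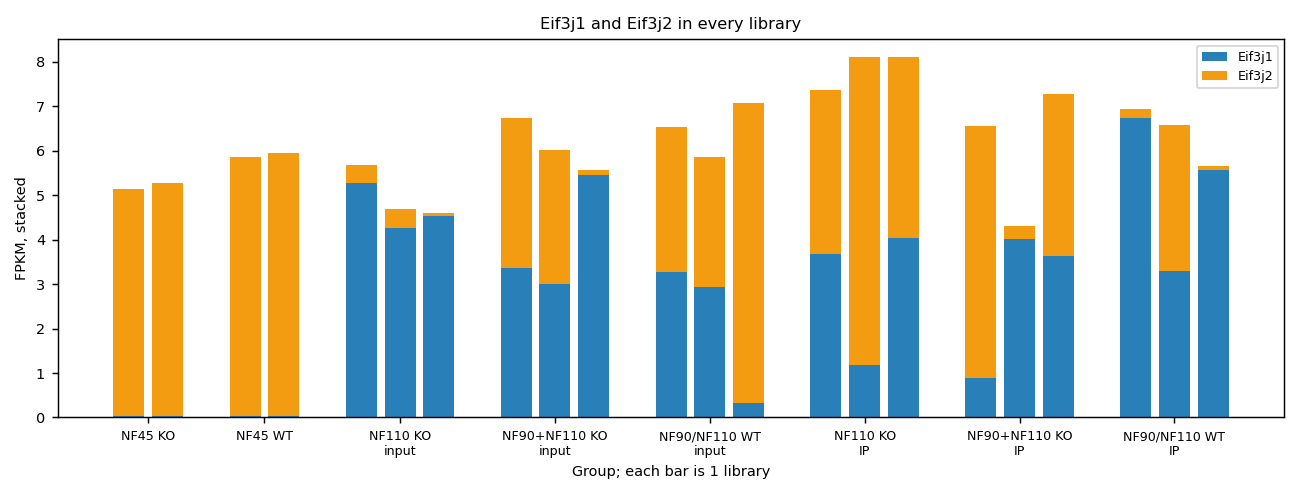
FPKM of Eif3j1 (lower part of each bar) and Eif3j2 (upper part) in each of the 22 libraries, by group. The share given to each copy changes from library to library, while the sum stays between 4.31 and 8.10 FPKM.

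In NF45 KO cells single initiation factor genes changed in both directions, and the median of the family lay near 0. NF45 KO against NF45 WT was tested with limma on log2(FPKM + 1), with Benjamini-Hochberg adjusted p under 0.05 called a change. The log2 differences of NF45 KO minus NF45 WT are given with their standard errors. Of 46 members tested 11 changed (23.9%), against 27.6% of all 11481 genes tested. In NF45 KO 5 were higher and 6 lower, against 11.7% and 16% of all genes. The KO and WT libraries did not overlap in 32 of 46 members, against 72% of all genes. The median member differed by -0.0032 on the log2 scale and the median gene by -0.033. Eif3j1 and Eif4e1b were under the minimum of 1 FPKM and were not tested.

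The largest rise was in Eif4a2, which encodes an isoform of the eIF4A helicase. Eif4a2 had 347 and 346 FPKM in NF45 KO libraries, against 163 and 136 FPKM in NF45 WT libraries (difference 1.21 ± 0.10, adjusted p = 0.00693). Both KO libraries lay above both WT libraries, and by mean FPKM Eif4a2 was at place 5 among the members in NF45 KO, against place 23 in NF45 WT. Its paralogue Eif4a1, the other cytoplasmic eIF4A, had 154 and 161 FPKM in NF45 KO and 159.7 and 154 FPKM in NF45 WT (difference 0.00092 ± 0.058, adjusted p = 0.992), with overlapping libraries. Eif4a2 overlaps Rfc4 and several small nucleolar RNA genes, and the labels do not say whether the authors counted by strand. Eif2s2, the beta subunit of eIF2, was at 376 and 374 FPKM in NF45 KO libraries, against 267 and 189.5 FPKM in NF45 WT libraries (difference 0.73 ± 0.17, adjusted p = 0.0413). The 2 WT libraries stood far apart and both lay below the KO libraries. Eif2s1, the regulated alpha subunit, had 65.97 and 68.9 FPKM in NF45 KO and 68.00 and 65.8 FPKM in NF45 WT (difference 0.011 ± 0.059, adjusted p = 0.904).

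The other rises were smaller, in 1 eIF2B gene and 2 eIF3 genes. Eif2b2, the beta subunit of eIF2B, had 83.4 and 88.7 FPKM in NF45 KO libraries, against 71.2 and 69.5 FPKM in NF45 WT libraries (difference 0.29 ± 0.062, adjusted p = 0.0328). Eif3l had 406 and 428 FPKM in NF45 KO libraries, against 309 and 336 FPKM in NF45 WT libraries (difference 0.37 ± 0.068, adjusted p = 0.0228). Eif3f, one of the 2 eIF3 subunits with an MPN fold, had 250.4 and 255 FPKM in NF45 KO libraries, against 209 and 202 FPKM in NF45 WT libraries (difference 0.30 ± 0.054, adjusted p = 0.0219). For all 3 genes the KO libraries lay above the WT libraries, and the call on Eif2b2 was lost when libraries were centred per chromosome (0.20).

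Among the genes that fell, Eif4ebp1 moved furthest. It had 259.8 and 294 FPKM in NF45 KO libraries, against 466 and 443 FPKM in NF45 WT libraries (difference -0.72 ± 0.080, adjusted p = 0.00844). Its KO and WT libraries did not overlap, but Eif4ebp1 lies on chromosome 8, and with each library centred per chromosome the difference was -0.15 and the call was lost. Eif4enif1, which encodes the eIF4E transporter, had 35.6 and 35.99 FPKM in NF45 KO libraries, against 43.3 and 41.6 FPKM in NF45 WT libraries (difference -0.24 ± 0.058, adjusted p = 0.042). The other eIF4E-binding genes did not pass: Eif4ebp2 differed by 0.17 ± 0.088 (adjusted p = 0.212) and Eif4ebp3 by -0.27 ± 0.091 (adjusted p = 0.0939).

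The other falls were in genes of scanning, subunit joining, eIF5A and eIF3. Eif1ax, the X-linked gene of the scanning factor eIF1A, had 153 and 153 FPKM in NF45 KO libraries, against 214 and 218 FPKM in NF45 WT libraries (difference -0.49 ± 0.052, adjusted p = 0.00783). Eif1a, the other mouse gene of eIF1A, on chromosome 18, had 91.96 and 99.4 FPKM in NF45 KO and 97.02 and 98.2 FPKM in NF45 WT and did not pass (difference -0.029 ± 0.065, adjusted p = 0.753). Eif5b, the GTPase that joins the subunits, had 40.8 and 39.5 FPKM in NF45 KO libraries, against 53.6 and 53.5 FPKM in NF45 WT libraries (difference -0.41 ± 0.056, adjusted p = 0.0123). Eif5a2, the minor form of eIF5A, had 7.53 and 7.39 FPKM in NF45 KO libraries, against 11.1 and 10.3 FPKM in NF45 WT libraries (difference -0.47 ± 0.077, adjusted p = 0.0183). Eif3b, a core scaffold subunit of eIF3, had 166 and 168 FPKM in NF45 KO libraries, against 192 and 195 FPKM in NF45 WT libraries (difference -0.21 ± 0.053, adjusted p = 0.0444). In each of these called genes the KO libraries lay below the WT libraries. Eif5b overlaps Rev1 and Eif4enif1 overlaps Sfi1 on the genome, so their counts may share reads with those genes.

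Without either NF45 KO library the comparison as a whole lost its calls, with 0 of 46 members and 1 of 11481 genes called without KO replicate 1, and 0 members and 0 genes without KO replicate 2 (9 and 8 members had an unadjusted p under 0.05). Without WT replicate 1 the count was 15 members and 6184 of 11481 genes, and without WT replicate 2 it was 17 members and 5366 genes. Scaling moved the balance of directions: median centring, edgeR and DESeq2 each gave 7 higher and 4 lower, and quantile scaling gave 7 higher and 5 lower, with Eif3b and Eif4enif1 no longer called under any of them. Over all 11481 genes these alternatives called 3118, 3120, 3728 and 3251, in that order. In the table the authors deposited, 10 of 45 members with an adjusted p pass 0.05, 5 higher and 5 lower, against 31.4% of all genes, and Eif3b is not among them.

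**Figure D3:**
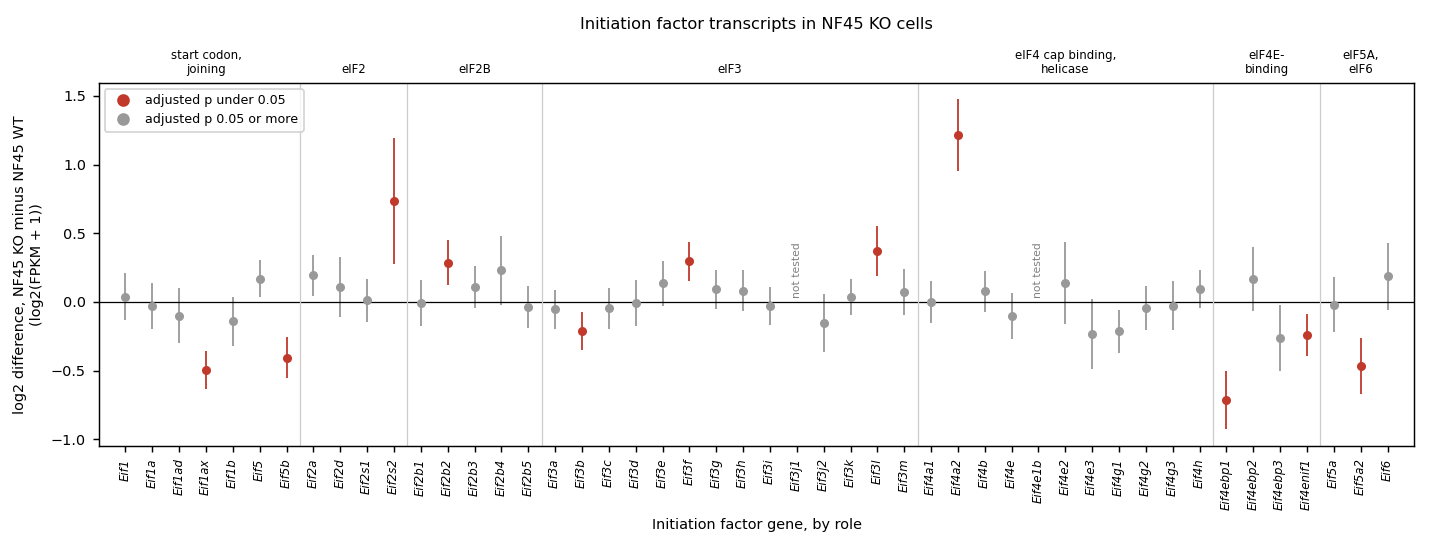
Difference between NF45 KO and NF45 WT cells (log2(FPKM + 1), limma estimate with its 95% confidence interval) for the initiation factor genes by role. Eif4a2 stands highest at 1.21 and Eif4ebp1 lowest at -0.72, and 11 members pass the threshold.

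Of 41 other translation genes on a list of regulators, poly(A)-binding proteins, reinitiation, elongation and termination factors and the 3 initiation factor genes left out above, 4 rose and 6 fell in NF45 KO, where 11.7% of all genes were higher and 16% lower, so the list's share of calls is near that of all genes. Pdcd4, an inhibitor of eIF4A, rose by 0.73 on the log2 scale (25.4 and 24.6 FPKM in NF45 KO, against 15.1 and 14.3 FPKM in NF45 WT). The poly(A)-binding protein genes Pabpc1 (0.28) and Pabpc4 (0.45) and Mcts1 (0.52), a reinitiation factor, were also higher in NF45 KO. The eIF2 kinase genes Eif2ak2 (-0.31) and Eif2ak3 (-0.64), Ppp1r15b (-0.53), which targets a phosphatase to eIF2, Larp1 (-0.41), Mknk1 (-0.53), an eIF4E kinase, and the ribosome recycling ATPase Abce1 (-0.60) were lower. All 6 elongation and 3 termination factor genes on the list were without a call.

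The promoters of the 5 genes that rose in NF45 KO are shown because these members moved in the same direction in the same libraries. They come from RefSeq on build GRCm38.p6, from 150 bases before the annotated start to 10 bases after it, read along the strand of the gene. Capitals mark an E-box (CACGTG), an ETS site (CCGGAAG) or a CCAAT box (CCAAT), each searched on both strands.
Eif4a2 (chr16:23107318-23107477, plus strand): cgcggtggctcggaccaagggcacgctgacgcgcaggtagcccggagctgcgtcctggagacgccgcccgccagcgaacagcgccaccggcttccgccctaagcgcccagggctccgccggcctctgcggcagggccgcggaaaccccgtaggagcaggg
Eif2s2 (chr2:154892897-154893056, minus strand): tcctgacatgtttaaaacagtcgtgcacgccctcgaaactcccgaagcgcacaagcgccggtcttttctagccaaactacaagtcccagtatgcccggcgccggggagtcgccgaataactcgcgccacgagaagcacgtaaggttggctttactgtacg
Eif3l (chr15:79075073-79075232, plus strand): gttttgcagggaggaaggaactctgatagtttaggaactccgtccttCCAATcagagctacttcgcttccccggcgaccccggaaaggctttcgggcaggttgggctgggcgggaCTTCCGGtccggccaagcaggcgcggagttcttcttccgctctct
Eif3f (chr7:108934265-108934424, plus strand): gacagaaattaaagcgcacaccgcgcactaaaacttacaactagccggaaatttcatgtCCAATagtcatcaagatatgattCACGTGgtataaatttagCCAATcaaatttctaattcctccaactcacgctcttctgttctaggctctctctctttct
Eif2b2 (chr12:85219331-85219490, plus strand): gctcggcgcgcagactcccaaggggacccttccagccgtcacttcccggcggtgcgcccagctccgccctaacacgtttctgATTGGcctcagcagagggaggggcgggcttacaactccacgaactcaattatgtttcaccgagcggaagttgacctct
No motif of the 3 was in all 5 windows: the windows of Eif4a2 and Eif2s2 held none, Eif3l held a CCAAT box and an ETS site, Eif3f held an E-box and CCAAT boxes, and Eif2b2 held a CCAAT box. Over the full RefSeq windows, from 250 bases before to 50 after the start, 36 members had a sequence. The ETS letters were in 15 of the 36 (41.7%), against 9.93% of 27025 genes, and the E-box in 10 (27.8%), against 8.09%. The GC box (GGGCGG) was in 28 (77.8%), against 38.2%, and the CCAAT box in 13 (36.1%), against 41.1%. The cAMP response element (TGACGTCA) was in 0 members, against 2.03% of genes. The GC box and ETS letters can share bases, and a match says only that the letters stand in the window. The 27025 genes were not limited to those expressed in these cells, while most members were. The shares among expressed genes were not counted.

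In input RNA no initiation factor gene passed the threshold between NF110 KO, NF90+NF110 KO and WT. NF110 KO against WT inputs, NF90+NF110 KO against WT inputs and NF90+NF110 KO against NF110 KO inputs were compared with limma over 12444 genes, and 0 of 46 members passed in each comparison. Few genes passed at all: 0.00804% of all genes tested in NF110 KO against WT, 0.209% in NF90+NF110 KO against WT, and 0.0482% between the knockouts. At an unadjusted p under 0.05 there were 14 members in NF110 KO against WT (16.4% of all genes), 4 in NF90+NF110 KO against WT (14.8% of all genes) and 6 between the knockouts (10.4% of all genes). The libraries did not overlap for 13, 8 and 9 members, against 22.6%, 21.5% and 14.7% of all genes. On recovered reads edgeR called 0 members in each, while DESeq2 called 4, 1 and 0, beside 334, 329 and 85 of 12444 genes. When chromosome 6 level entered the model limma called 5 (1 higher, 4 lower), 3 (all higher) and 0, beside 719, 1016 and 77 of 12444 genes. In the authors' deposited table the number of members that pass is 4 in NF110 KO against WT (4.83% of genes), namely Eif4ebp1 with a log2 fold change of 0.38, Eif3a with -0.26, Eif5 with -0.49 and Eif5b with -0.34, and 1 in NF90+NF110 KO against WT (4.94% of genes), Eif4ebp1 with 0.26.

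The member nearest to the threshold in NF110 KO against WT inputs was Eif4ebp1, whose per-library levels stand above. All 3 NF110 KO inputs lay above all 3 WT inputs (difference 0.40 ± 0.086, adjusted p = 0.149), and so did the NF90+NF110 KO inputs (difference 0.28 ± 0.086, adjusted p = 0.203). Eif5, the GTPase activator of eIF2, had 33.7, 28.3 and 34.4 FPKM in NF110 KO inputs and 49.98, 35.5 and 48.1 FPKM in NF90+NF110 KO inputs, against 41.6, 44.3 and 55.2 FPKM in WT inputs. NF110 KO lay below WT in every library (difference -0.53 ± 0.15, adjusted p = 0.177), while the NF90+NF110 KO libraries overlapped WT. Eif4a2, the gene that moved furthest in NF45 KO, had 171, 150.3 and 174 FPKM in NF110 KO inputs and 216, 178 and 213 FPKM in NF90+NF110 KO inputs, against 213, 195 and 261 FPKM in WT inputs (differences of -0.42 ± 0.12 and -0.14 ± 0.12, adjusted p = 0.182 and 0.66). Eif2s2 had 172, 151 and 191 FPKM in NF110 KO inputs and 257, 177 and 235 FPKM in NF90+NF110 KO inputs, against 190.2, 226 and 238 FPKM in WT inputs. Its libraries overlapped between NF90+NF110 KO and WT, and its differences from WT were -0.35 ± 0.15 and 0.022 ± 0.15 (adjusted p = 0.297 and 0.968). Eif2d, a factor that can deliver initiator tRNA without GTP, had 88.4, 77.3 and 89.98 FPKM in NF90+NF110 KO inputs and 61.4, 63.6 and 79.3 FPKM in NF110 KO inputs, against 55.7, 69.6 and 67.2 FPKM in WT inputs. The double knockout lay above WT in every library (difference 0.41 ± 0.12, adjusted p = 0.19). Eif5b, at 14.2, 11.9 and 10.7 FPKM in NF110 KO inputs and 13.9, 12.5 and 11.99 FPKM in NF90+NF110 KO inputs against 14.9, 16.2 and 15.7 FPKM in WT inputs, was below WT in every knockout library without passing (adjusted p = 0.198 and 0.292). The copies Eif3j1 and Eif3j2 differed by 1.01 and -1.97 in NF110 KO against WT, and their sum by -0.32 ± 0.11 (adjusted p = 0.219).

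In the immunoprecipitates many initiation factor RNAs stood above their own input. Among the called members the largest ratios, those of Eif4g1 and Eif3c, were also above input in the double knockout, which lacks both antibody targets. IP was compared with the input of the same experiment, 3 experiments per genotype, in 1 limma fit of 12693 genes over 18 libraries with a term per experiment. In NF110 KO 27 of 46 members were called, 24 higher and 3 lower in the IP, against 38.1% of all genes (21.1% higher and 17% lower). In NF90+NF110 KO 29 of 46 were called, 18 higher and 11 lower, against 44.6% of all genes (23.4% higher and 21.1% lower). In WT 33 of 46 were called, 25 higher and 8 lower, against 52.5% of all genes (28.9% higher and 23.6% lower). The 3 experiments lay on the same side of input for 40, 35 and 37 members in NF110 KO, NF90+NF110 KO and WT, against 61.5%, 64.3% and 71.6% of all genes. The median member stood at 0.18, 0.028 and 0.18 on the log2 scale in NF110 KO, NF90+NF110 KO and WT, and the median gene at 0.012, -0.00078 and 0.018. Eif4e1b and Eif4e3 were under the FPKM minimum and were not tested. Quantile scaling gave 18 higher and 5 lower in NF110 KO and 16 higher and 13 lower in WT, and edgeR gave 14 higher and 13 lower in NF90+NF110 KO. Beside these stood 4616, 6583 and 5851 of 12693 genes called in either direction, in that order. FPKM of the ribosomal RNA precursor Rn45s also moved with genotype, at 1810 to 2308 in NF110 KO, 1048 to 1218 in NF90+NF110 KO and 2270 to 2790 in WT IPs, and its part in these ratios was not tested.

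The single copies Eif3j1 and Eif3j2 had larger ratios in some libraries but were not called in any genotype and are set aside in this ranking. Eif3j2 had log2 IP over input of 1.73, 2.46 and 2.24 in NF110 KO, 0.61, -1.63 and 2.04 in NF90+NF110 KO and -1.85, 0.12 and -2.85 in WT experiments, which scattered around input in NF90+NF110 KO. The strongest of the called members was Eif4g1, the main eIF4G scaffold, with log2 IP over input of 1.04, 0.93 and 1.07 in NF110 KO, 1.11, 1.06 and 1.10 in NF90+NF110 KO and 1.13, 1.21 and 1.27 in WT experiments. Its adjusted p was 1.21e-08 in NF110 KO, 4.45e-09 in NF90+NF110 KO and 1.76e-09 in WT. All 9 experiments put Eif4g1 at least 0.93 above input, and the difference between WT and NF90+NF110 KO was 0.12 (95% confidence interval -0.015 to 0.25, adjusted p = 0.269). Eif3c, a core subunit of eIF3, followed with log2 IP over input of 0.92, 0.95 and 0.94 in NF110 KO, 0.86, 0.99 and 0.90 in NF90+NF110 KO and 1.07, 0.97 and 1.04 in WT experiments, and its WT less NF90+NF110 KO difference was 0.11 ± 0.057 (adjusted p = 0.259). Eif4g3, the second eIF4G scaffold, had log2 IP over input of 0.57, 0.51 and 0.74 in NF110 KO, 0.77, 0.79 and 0.60 in NF90+NF110 KO and 0.73, 0.69 and 0.91 in WT experiments (WT less NF90+NF110 KO 0.057 ± 0.092, adjusted p = 0.755). For these 3 RNAs no experiment of any genotype was at or below input.

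**Figure D4:**
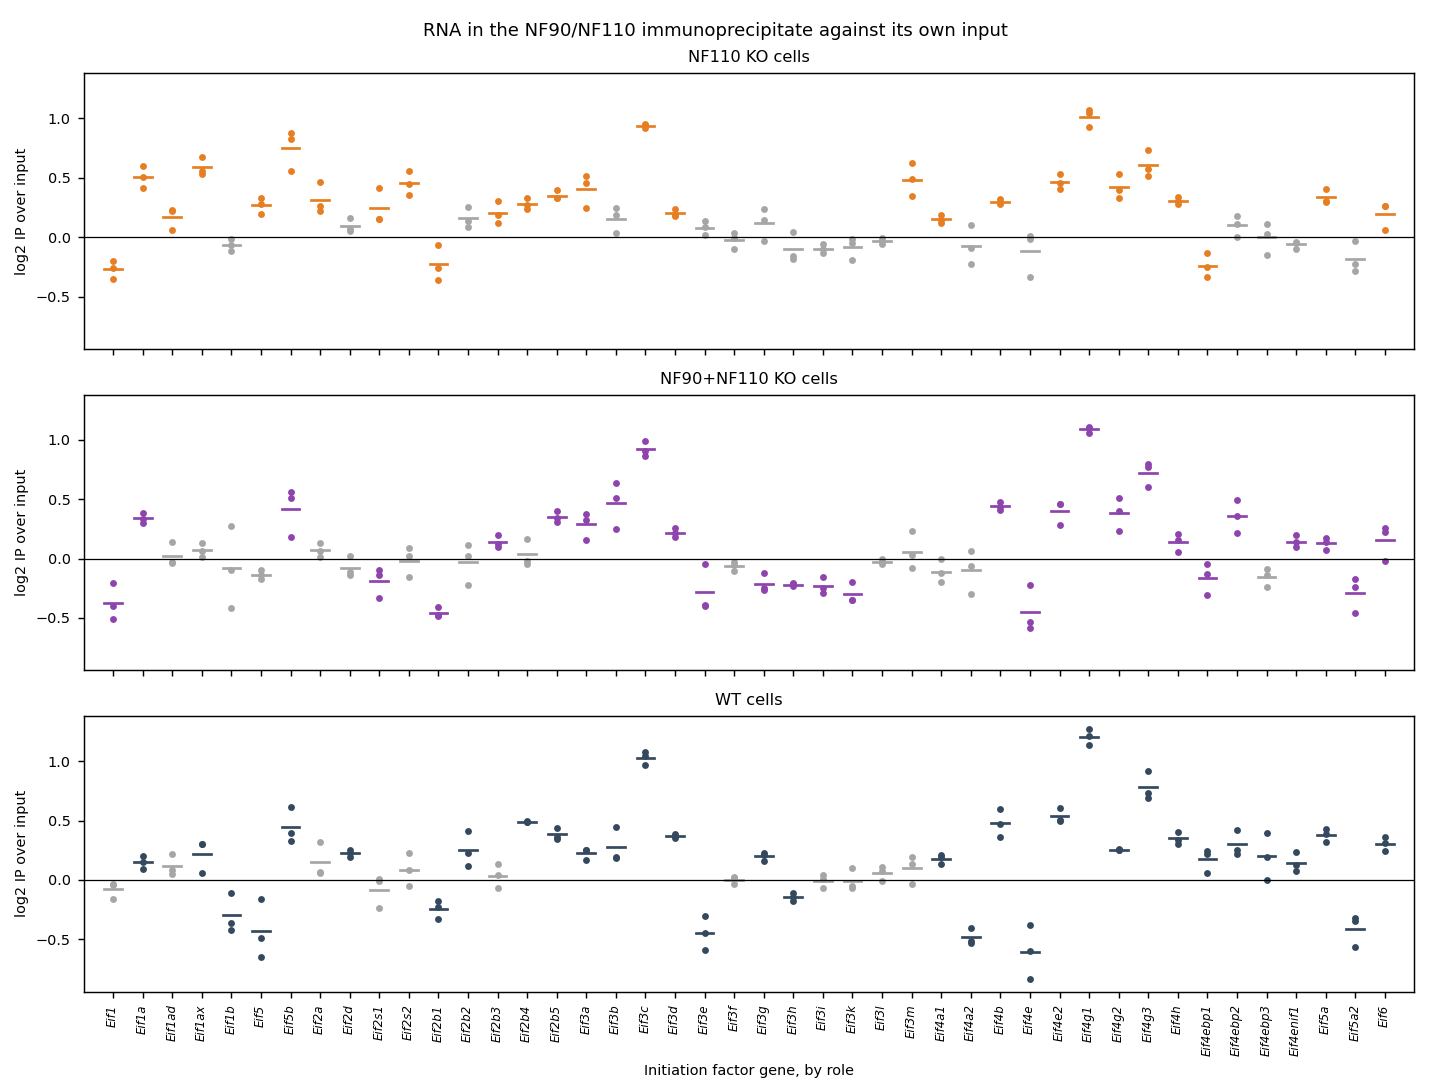
log2 IP over input of 44 initiation factor genes in each of 3 experiments (points) with their mean (bar), in NF110 KO, NF90+NF110 KO and WT cells; coloured genes pass an adjusted p under 0.05 and grey ones do not. Eif3j1 and Eif3j2 are left out. Eif4g1 and Eif3c are near 1 in all 3 panels, including cells without NF90 and NF110.

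In all, 14 members were called higher in the IP in all 3 genotypes: Eif1a, Eif5b, Eif2b5, Eif3a, Eif3c, Eif3d, Eif4b, Eif4e2, Eif4g1, Eif4g2, Eif4g3, Eif4h, Eif5a and Eif6. The share of all genes called higher, or lower, in all 3 genotypes was not counted, so the 14 cannot be set against it. Eif5b had log2 IP over input of 0.56, 0.82 and 0.88 in NF110 KO, 0.18, 0.56 and 0.51 in NF90+NF110 KO and 0.61, 0.40 and 0.33 in WT experiments. Eif4e2 had log2 IP over input of 0.53, 0.45 and 0.40 in NF110 KO, 0.46, 0.46 and 0.28 in NF90+NF110 KO and 0.49, 0.51 and 0.60 in WT experiments. Eif4b, an RNA-binding cofactor of eIF4A, had log2 IP over input of 0.33, 0.28 and 0.30 in NF110 KO, 0.47, 0.44 and 0.41 in NF90+NF110 KO and 0.36, 0.47 and 0.60 in WT experiments. These 3 were above input in all 9 experiments, and for Eif4b the NF110 KO experiments lay below all the others. Eif2b5 had log2 IP over input of 0.39, 0.33 and 0.33 in NF110 KO, 0.30, 0.34 and 0.40 in NF90+NF110 KO and 0.35, 0.36 and 0.44 in WT experiments. Eif4g2, a relative of eIF4G that lacks the eIF4E-binding part, had log2 IP over input of 0.33, 0.39 and 0.53 in NF110 KO, 0.40, 0.23 and 0.51 in NF90+NF110 KO and 0.26, 0.25 and 0.26 in WT experiments. Eif3d, a subunit that can itself bind the cap, had log2 IP over input of 0.24, 0.18 and 0.19 in NF110 KO, 0.18, 0.26 and 0.22 in NF90+NF110 KO and 0.39, 0.36 and 0.37 in WT experiments. These 3 were also above input in all 9 experiments. Eif3a, the largest eIF3 subunit, had log2 IP over input of 0.25, 0.46 and 0.51 in NF110 KO, 0.16, 0.33 and 0.38 in NF90+NF110 KO and 0.25, 0.17 and 0.25 in WT experiments. Eif4h, a small homologue of eIF4B, had log2 IP over input of 0.30, 0.28 and 0.34 in NF110 KO, 0.053, 0.21 and 0.16 in NF90+NF110 KO and 0.30, 0.41 and 0.34 in WT experiments. Eif6, which keeps the large subunit from joining too early, had log2 IP over input of 0.26, 0.27 and 0.064 in NF110 KO, 0.23, 0.26 and -0.018 in NF90+NF110 KO and 0.36, 0.31 and 0.24 in WT experiments, so that 1 NF90+NF110 KO experiment was just below input. In the double knockout Eif6 lost its call under 8 of 11 alternatives, Eif5a under 5 and Eif4h under 3, and in NF110 KO Eif6 lost it under 5. In WT Eif1a lost its call under 6 of 11 alternatives, among them edgeR, DESeq2 and quantile scaling, and in the other genotypes under 0. Each of the other calls among these 14 was lost under at most 2 of 11.

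Fewer members were depleted from the IP. Eif2b1, the alpha subunit of eIF2B, was the only one called lower in all 3 genotypes, with log2 IP over input of -0.26, -0.069 and -0.36 in NF110 KO, -0.48, -0.41 and -0.47 in NF90+NF110 KO and -0.18, -0.33 and -0.23 in WT experiments. Eif4e, the cap-binding protein gene, had log2 IP over input of -0.34, -0.019 and 0.011 in NF110 KO, -0.53, -0.59 and -0.22 in NF90+NF110 KO and -0.60, -0.38 and -0.83 in WT experiments, and was called in NF90+NF110 KO and WT. Eif5a2 had log2 IP over input of -0.29, -0.23 and -0.036 in NF110 KO, -0.17, -0.46 and -0.24 in NF90+NF110 KO and -0.56, -0.32 and -0.35 in WT experiments and was called in the same genotypes, as was Eif3e with log2 IP over input of 0.014, 0.089 and 0.13 in NF110 KO, -0.40, -0.39 and -0.047 in NF90+NF110 KO and -0.30, -0.44 and -0.59 in WT experiments. In all 4 genes every NF90+NF110 KO and WT experiment was below input. Eif3h, with an MPN fold like Eif3f, had log2 IP over input of -0.16, 0.042 and -0.19 in NF110 KO, -0.21, -0.22 and -0.23 in NF90+NF110 KO and -0.17, -0.15 and -0.11 in WT experiments and was called in NF90+NF110 KO and WT. Eif1b, a close relative of the start codon fidelity factor Eif1, had log2 IP over input of -0.062, -0.015 and -0.11 in NF110 KO, 0.28, -0.10 and -0.41 in NF90+NF110 KO and -0.36, -0.11 and -0.42 in WT experiments and was called in WT. In Eif1b the NF90+NF110 KO experiments lay on both sides of input. Eif1 had log2 IP over input of -0.20, -0.26 and -0.35 in NF110 KO, -0.20, -0.40 and -0.51 in NF90+NF110 KO and -0.16, -0.046 and -0.031 in WT experiments and was called lower in both knockouts.

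Some members of the same complex went different ways. Within eIF3, WT had 5 members higher and 2 lower, NF110 KO 4 higher and 0 lower, and NF90+NF110 KO 4 higher and 5 lower. Eif3b was at log2 IP over input of 0.18, 0.038 and 0.25 in NF110 KO, 0.64, 0.25 and 0.51 in NF90+NF110 KO and 0.19, 0.19 and 0.45 in WT experiments and was called in NF90+NF110 KO and WT. Eif3f and Eif3l, which rose in NF45 KO, had ratios between -0.105 and 0.112 in all 9 experiments and were not called. Within eIF2B, Eif2b2 was called only in WT, with log2 IP over input of 0.26, 0.14 and 0.087 in NF110 KO, -0.22, 0.11 and 0.025 in NF90+NF110 KO and 0.41, 0.12 and 0.22 in WT experiments, and Eif2b3 only in the knockouts, with log2 IP over input of 0.12, 0.18 and 0.31 in NF110 KO, 0.10, 0.20 and 0.12 in NF90+NF110 KO and 0.13, 0.040 and -0.064 in WT experiments. Eif2b3 lost its call in NF90+NF110 KO under 9 of the 11 alternatives, among them leaving out any 1 experiment, edgeR and DESeq2. Among the smaller ratios Eif4ebp2 had log2 IP over input of 0.18, 0.11 and 0.0030 in NF110 KO, 0.50, 0.22 and 0.36 in NF90+NF110 KO and 0.26, 0.22 and 0.42 in WT experiments and Eif4enif1 had log2 IP over input of -0.038, -0.047 and -0.10 in NF110 KO, 0.19, 0.10 and 0.14 in NF90+NF110 KO and 0.077, 0.13 and 0.23 in WT experiments, both called higher in NF90+NF110 KO and WT. Eif4ebp3 was called in WT, with log2 IP over input of 0.030, 0.11 and -0.15 in NF110 KO, -0.24, -0.090 and -0.14 in NF90+NF110 KO and 0.0030, 0.20 and 0.40 in WT experiments. This call was lost under 6 of the 11 alternatives, and so was each of the calls on Eif4enif1. The calls on Eif4ebp2 were lost under 1 each. Eif1ad, a protein with an eIF1A-like domain, was at log2 IP over input of 0.22, 0.23 and 0.057 in NF110 KO, 0.14, -0.041 and -0.033 in NF90+NF110 KO and 0.22, 0.087 and 0.053 in WT experiments and was called in NF110 KO, as was Eif2a, an alternative carrier of initiator tRNA, at log2 IP over input of 0.26, 0.22 and 0.46 in NF110 KO, 0.065, 0.011 and 0.13 in NF90+NF110 KO and 0.071, 0.32 and 0.062 in WT experiments. Eif1ad lost its call under 7 of the 11 alternatives and Eif2a under 1.

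Across the 44 members at 1 FPKM or more in all inputs, the IP ratio tended to be higher for genes with a longer transcript as implied by the reads per FPKM. That length ran from 697 bases for Eif3k to 8148 bases for Eif4g2. Over the 11318 genes at this level it ran from 0 to 88065 bases. It is thus not a measured transcript length, and single values can be far off. Spearman's rho over the 44 members was 0.44 in NF110 KO, 0.50 in NF90+NF110 KO and 0.25 in WT, against 0.12, 0.32 and 0.050 over 11318 genes. These are descriptions across genes of the same libraries, which are not independent replicates, and the length and the ratio share the FPKM values.

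The differences between genotypes ask which of these ratios depend on the antibody targets. Set against the double knockout, NF110 KO cells still have NF90 and WT cells have NF90 and NF110. The difference NF110 KO less NF90+NF110 KO was called for 10 of 46 members, all 10 positive, against 9.91% of all genes (6% positive and 3.91% negative). WT less NF90+NF110 KO was called for 10 of 46 members, 9 positive and 1 negative, against 5.82% of all genes (4.61% positive and 1.21% negative). The experiments of the genotypes did not overlap for 22 and 20 members in these comparisons, against 30.2% and 28.2% of all genes. Median differences over the members were 0.13 and 0.095, against -0.0045 and 0.0060 over all genes. Both use the NF90+NF110 KO experiments, so the calls they share are not independent of each other. These counts depend strongly on the processing. Quantile scaling gave 5 positive and 4 negative for NF110 KO less NF90+NF110 KO, beside 1047 of 12693 genes. For WT less NF90+NF110 KO it gave 1 call, Eif2b4, beside 135 of 12693 genes, where 739 genes were called without that scaling. For NF110 KO less NF90+NF110 KO edgeR gave 12 positive and 2 negative and DESeq2 10 positive and 2 negative, beside 1949 and 1242 genes. Leaving out some single experiments lowered the calls over all genes as well as among the members, while leaving out others did so little or not at all. WT less NF90+NF110 KO had 10 members and 1176 genes without NF90+NF110 KO experiment 2. NF110 KO less NF90+NF110 KO had 9 members and 1427 genes without NF110 KO experiment 1. Without NF90+NF110 KO experiments 2 and 3, each left out alone, it had 9 members and 833 genes, and 8 members and 1147 genes. NF110 KO less NF90+NF110 KO had 0 members and 4 of 12693 genes without NF110 KO experiment 2, 4 members and 395 genes without NF110 KO experiment 3, and 0 members and 7 genes without NF90+NF110 KO experiment 1. WT less NF90+NF110 KO had 0 members and 13 genes called without WT experiment 2, and the same counts without NF90+NF110 KO experiment 1. It had 1 member and 49 genes without NF90+NF110 KO experiment 3, 2 members and 57 genes without WT experiment 1, and 3 members and 360 genes without WT experiment 3. Without the filter on low values the counts were 2 and 4 members, beside 320 and 214 of 18789 genes, and without the experiment term 0 members passed in either, beside 1 and 0 genes.

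The members positive in both were Eif2b4, Eif3g, Eif4a1 and Eif5a. The share of all genes positive in both was not counted. Eif2b4, the delta subunit of eIF2B, had log2 IP over input of 0.27, 0.33 and 0.24 in NF110 KO, -0.045, 0.17 and -0.018 in NF90+NF110 KO and 0.49, 0.49 and 0.49 in WT experiments. The 3 WT experiments were all at 0.49 and none of the NF90+NF110 KO experiments reached the lowest NF110 KO one (NF110 KO less NF90+NF110 KO 0.25 ± 0.068, adjusted p = 0.0414, and WT less NF90+NF110 KO 0.45 ± 0.068, adjusted p = 0.0115). Eif3g, an RNA-binding subunit of eIF3, had log2 IP over input of 0.24, 0.14 and -0.029 in NF110 KO, -0.26, -0.12 and -0.25 in NF90+NF110 KO and 0.21, 0.23 and 0.16 in WT experiments. It was below input in all 3 double knockout experiments and above it in all WT ones (NF110 KO less NF90+NF110 KO 0.33 ± 0.072, adjusted p = 0.0221, and WT less NF90+NF110 KO 0.41 ± 0.072, adjusted p = 0.0144). Eif4a1 had log2 IP over input of 0.12, 0.19 and 0.15 in NF110 KO, -0.20, -0.0079 and -0.12 in NF90+NF110 KO and 0.19, 0.21 and 0.13 in WT experiments (NF110 KO less NF90+NF110 KO 0.26 ± 0.061, adjusted p = 0.0265, and WT less NF90+NF110 KO 0.29 ± 0.061, adjusted p = 0.0215). Eif4a1 was called higher in the IP of NF110 KO and WT and not in NF90+NF110 KO. Eif5a had log2 IP over input of 0.41, 0.30 and 0.29 in NF110 KO, 0.069, 0.17 and 0.14 in NF90+NF110 KO and 0.43, 0.39 and 0.32 in WT experiments (NF110 KO less NF90+NF110 KO 0.21 ± 0.060, adjusted p = 0.0475, and WT less NF90+NF110 KO 0.25 ± 0.060, adjusted p = 0.0328), and both differences turned negative under quantile scaling (-0.058 and -0.048). Eif5a overlaps Gps2 and Eif4a1 overlaps small nucleolar RNA genes. Other members named here with an overlapping gene include Eif4g1 (Snord66), Eif3c (the small nuclear RNA gene Gm24596), Eif5 (Snora28) and Eif2d (Rassf5).

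Called in NF110 KO less NF90+NF110 KO, and not in WT less NF90+NF110 KO, were Eif1ax, Eif2s1, Eif2s2, Eif3e, Eif3m and Eif5. Eif1ax had log2 IP over input of 0.54, 0.67 and 0.56 in NF110 KO, 0.062, 0.13 and 0.010 in NF90+NF110 KO and 0.30, 0.30 and 0.055 in WT experiments, and its difference was 0.52 ± 0.075 (adjusted p = 0.0106). Both eIF2 subunit genes among the members passed here. Eif2s2 had log2 IP over input of 0.36, 0.56 and 0.45 in NF110 KO, -0.15, 0.018 and 0.086 in NF90+NF110 KO and 0.22, 0.081 and -0.047 in WT experiments (difference 0.47 ± 0.085, adjusted p = 0.0139). Eif2s1 had log2 IP over input of 0.15, 0.42 and 0.15 in NF110 KO, -0.33, -0.14 and -0.10 in NF90+NF110 KO and 0.0055, -0.011 and -0.24 in WT experiments (difference 0.43 ± 0.10, adjusted p = 0.023). For both the NF110 KO experiments lay above input and above every NF90+NF110 KO experiment. Eif3m had log2 IP over input of 0.35, 0.49 and 0.62 in NF110 KO, -0.080, 0.030 and 0.23 in NF90+NF110 KO and 0.13, 0.19 and -0.032 in WT experiments (difference 0.43 ± 0.093, adjusted p = 0.0212). Eif5 had log2 IP over input of 0.20, 0.28 and 0.33 in NF110 KO, -0.14, -0.17 and -0.10 in NF90+NF110 KO and -0.16, -0.49 and -0.65 in WT experiments (difference 0.41 ± 0.10, adjusted p = 0.0305), so that it was called higher in the IP of NF110 KO and lower in that of WT. Eif3e differed by 0.36 ± 0.10 (adjusted p = 0.0398), with values just above input in NF110 KO and below it in NF90+NF110 KO.

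Called in WT less NF90+NF110 KO, and not in NF110 KO less NF90+NF110 KO, were Eif1, Eif2d, Eif3i, Eif3k, Eif4ebp1 and, as the only negative one, Eif4a2. Eif2d had log2 IP over input of 0.16, 0.048 and 0.065 in NF110 KO, -0.14, 0.020 and -0.11 in NF90+NF110 KO and 0.23, 0.19 and 0.26 in WT experiments (difference 0.30 ± 0.062, adjusted p = 0.0197). Eif3k had log2 IP over input of -0.047, -0.015 and -0.19 in NF110 KO, -0.35, -0.20 and -0.35 in NF90+NF110 KO and -0.064, 0.10 and -0.055 in WT experiments (difference 0.29 ± 0.072, adjusted p = 0.036). Eif3i had log2 IP over input of -0.14, -0.10 and -0.061 in NF110 KO, -0.25, -0.16 and -0.29 in NF90+NF110 KO and 0.0076, 0.042 and -0.068 in WT experiments (difference 0.22 ± 0.059, adjusted p = 0.0445). In Eif3i and Eif3k the WT values lay on both sides of input, and every double knockout value was below it. Eif4ebp1 had log2 IP over input of -0.13, -0.25 and -0.34 in NF110 KO, -0.13, -0.048 and -0.31 in NF90+NF110 KO and 0.057, 0.22 and 0.25 in WT experiments (difference 0.34 ± 0.082, adjusted p = 0.0353), and Eif1 differed by 0.29 ± 0.079 (adjusted p = 0.0497). Eif4a2 had log2 IP over input of -0.23, -0.094 and 0.11 in NF110 KO, -0.067, -0.30 and 0.067 in NF90+NF110 KO and -0.40, -0.53 and -0.52 in WT experiments (difference -0.38 ± 0.10, adjusted p = 0.0424), so it was less enriched in WT than in the double knockout. Eif3g, Eif3i and Eif3k were the only eIF3 genes that passed in this comparison.

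**Figure D5:**
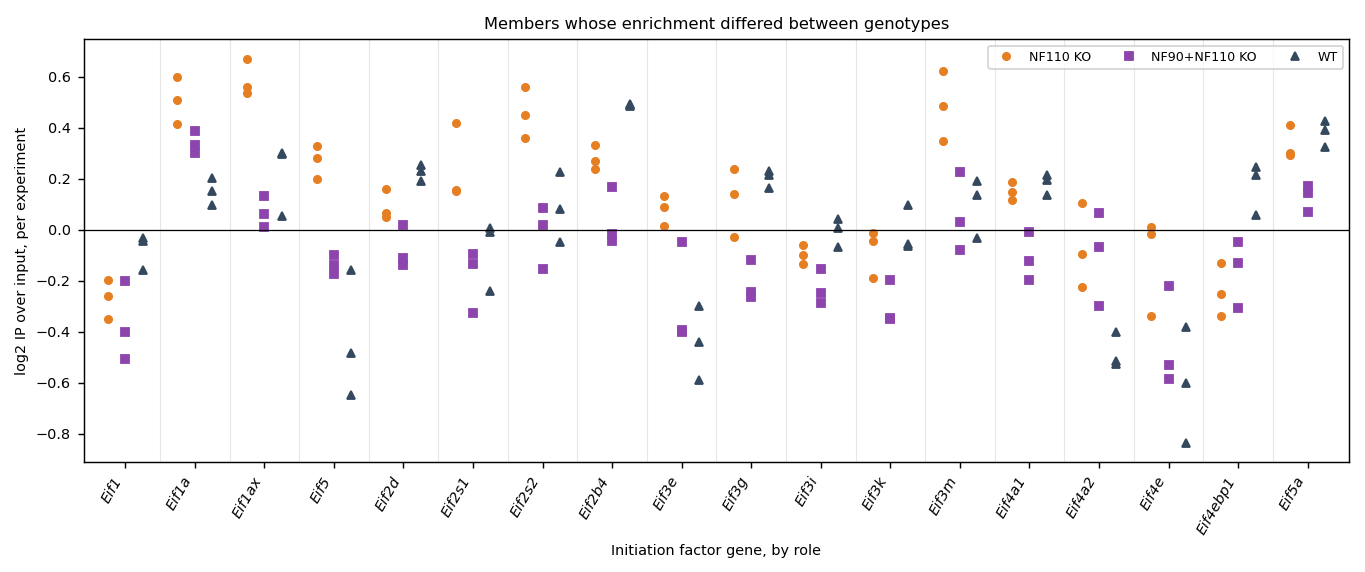
log2 IP over input in each experiment for the 18 members whose ratio differed between at least 1 pair of genotypes, with NF110 KO, NF90+NF110 KO and WT side by side. Eif2b4, Eif3g, Eif4a1 and Eif5a are lowest in NF90+NF110 KO, and Eif5 is above input in NF110 KO and below it in the other 2 genotypes.

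Between WT and NF110 KO the ratios of 10 of 46 members differed, against 13.3% of all genes. As WT less NF110 KO, 9 were negative and 1 positive, against 6.8% negative and 6.55% positive over all genes. The 9 thus had a higher ratio of IP to input in NF110 KO cells, through a lower input, a higher IP or both. Mean FPKM of Eif2s2 was 171.3 in NF110 KO and 217.9 in WT inputs, and 235.1 and 230.4 in the IPs. For Eif3e it was 65.4 and 82.2 in the inputs and 69.3 and 59.8 in the IPs. The experiments did not overlap for 24 members, against 37.6% of all genes. Median centring gave 8 negative and 4 positive, edgeR 11 and 3, and DESeq2 10 and 4, beside 1717, 2464 and 1566 of 12693 genes. The largest was Eif5 (-0.70 ± 0.10, adjusted p = 0.0169), followed by Eif3e (-0.52 ± 0.10, adjusted p = 0.0172) and Eif4e (-0.49 ± 0.13, adjusted p = 0.0351). Eif4a2 (-0.41 ± 0.10), Eif3m (-0.39 ± 0.093), Eif2s2 (-0.37 ± 0.085), Eif1ax (-0.37 ± 0.075), Eif1a (-0.36 ± 0.067) and Eif2s1 (-0.32 ± 0.10) were also negative. Eif1a had log2 IP over input of 0.41, 0.51 and 0.60 in NF110 KO, 0.33, 0.30 and 0.39 in NF90+NF110 KO and 0.15, 0.20 and 0.10 in WT experiments. The positive one was Eif4ebp1 (0.41 ± 0.082, adjusted p = 0.0182), which was above input in all WT experiments and below it in all NF110 KO and NF90+NF110 KO experiments. The summed Eif3j1 and Eif3j2 had log2 IP over input of 0.32, 0.68 and 0.70 in NF110 KO, -0.034, -0.40 and 0.33 in NF90+NF110 KO and 0.073, 0.14 and -0.28 in WT experiments. The sum was called higher in the IP of NF110 KO (0.57 ± 0.13, adjusted p = 0.00406), with WT less NF110 KO of -0.59 ± 0.18 (adjusted p = 0.0498). This comparison shares its experiments with the others, so Eif1ax, Eif2s1, Eif2s2, Eif3e, Eif3m and Eif5 stand in it and in NF110 KO less NF90+NF110 KO through the same NF110 KO libraries. The count was 5 members and 338 of 12693 genes without WT experiment 2. It was 9 members and 1339 genes without WT experiment 1, and 13 members and 2409 genes without NF110 KO experiment 1. It was 0 members and 0 genes without WT experiment 3, NF110 KO experiment 2 or NF110 KO experiment 3, without the filter on low values and without the experiment term.

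Of the 41 other translation genes, NF110 KO less NF90+NF110 KO was called for 3 positive (Ddx3x, Eef1d and Paip2) and 3 negative (Larp1, Ppp1r15a and Tsc2), against 6% and 3.91% of all genes. WT less NF90+NF110 KO was called for 2 of the 41, against 5.82% of all genes, both positive, the elongation factor genes Eef1d (0.45 ± 0.081) and Eef1g (0.25 ± 0.065). In the table the authors deposited, 15 of 45 members pass for IP over input in NF110 KO (15.4% of genes), 15 of 44 in NF90+NF110 KO (23.2%) and 21 of 45 in WT (27.2%). Its log2 fold changes for Eif4g1 are 0.98, 1.05 and 1.17 and for Eif3c 0.88, 0.86 and 0.97, in NF110 KO, NF90+NF110 KO and WT.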

How the data were processed

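RNA was measured in 22 libraries of 8 groups. Per the submitters' processing notes, reads were processed with TopHat2 2.0.10, Cufflinks 2.2.1, Cuffnorm, HTSeq 0.6.1 and DESeq2 on mm10. The authors deposited a table of FPKM values, and a table whose signal columns are read counts divided by DESeq2 size factors, per the file headers. That deposited table also holds log2 fold changes, their standard errors and test statistics as scores, and p-values and adjusted p-values, of which the fold changes and adjusted p-values are quoted as the authors' own. The labels give no strand setting for the counting.

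Differences were tested with limma 3.58.1 (R 4.3.3, mean-variance trend, robust) on log2(FPKM + 1), which understates changes of low genes. NF45 libraries, inputs and RIP-seq libraries were fitted separately, over genes with 1 FPKM or more in at least 2 of 4 NF45 libraries, 3 of 9 inputs or 3 of 18 RIP-seq libraries, and p-values were adjusted by Benjamini-Hochberg over all genes of the fit. IP was paired with the input of the same number (deviations from group means correlated at r = 0.55 to 0.84 in all 9 pairs), so the RIP-seq fit holds a term per experiment. Whole reads were recovered from the deposited signal (100% of values within 0.1 of a whole number) and tested with edgeR 4.0.16 and DESeq2 1.42.0 as alternatives. Other alternatives were no filter, a pseudocount of 0.1, quantile scaling, median centring, per-chromosome centring, a term for chromosome 6, other block settings and leaving out each replicate.

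The members and gene lists were chosen with earlier results of these data known. Values are given per library or experiment for members called in any of 10 comparisons, for the member with the largest absolute difference in each comparison and role, and for the most abundant member of each role, with the rest given by range or count. Chromosomes and promoters come from RefSeq (GRCm38.p6), where 36 of the 48 members had a promoter sequence. The check of the targeted gene in the NF110 KO and NF90+NF110 KO libraries is not reported here.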

Additional observations from a re-analysis of the deposited data

Results flagged for a closer look

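The enrichment over input of 18 members differed between genotypes by a test of the difference itself (limma, adjusted p under 0.05), in 30 differences over 3 comparisons that share their experiments. Over all genes 9.91% were called for NF110 KO less NF90+NF110 KO, 5.82% for WT less NF90+NF110 KO and 13.3% for WT less NF110 KO. In each of the 30 the 3 experiments of one genotype lay apart from the 3 of the other. A call at this threshold favours such separation, so it adds no support of its own. Over all genes the experiments did not overlap for 30.2%, 28.2% and 37.6%, in the same order of comparisons. All 30 calls are lost without the experiment term, and in each comparison all 10 are lost without certain single experiments.

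For NF110 KO less NF90+NF110 KO, with NF90 present against NF90 absent, the log2 differences were 0.52 for Eif1ax, 0.25 for Eif2b4, 0.43 for Eif2s1, 0.47 for Eif2s2, 0.36 for Eif3e, 0.33 for Eif3g, 0.43 for Eif3m, 0.26 for Eif4a1, 0.41 for Eif5 and 0.21 for Eif5a. All 10 had a higher ratio of IP to input in NF110 KO. WT cells have NF90 too, and of these genes Eif2b4, Eif3g, Eif4a1 and Eif5a were also called in WT less NF90+NF110 KO. Without a call there, the mean ratios of Eif5 and Eif3e were lower in WT (-0.43 and -0.44) than in NF90+NF110 KO (-0.14 and -0.28). Those of Eif1ax (0.22 against 0.068), Eif2s1 (-0.082 against -0.19), Eif2s2 (0.086 against -0.017) and Eif3m (0.097 against 0.059) were higher in WT, also without a call. A missing call does not show that the genotypes were alike, and the cause was not tested.

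For WT less NF90+NF110 KO they were 0.29 for Eif1, 0.45 for Eif2b4, 0.30 for Eif2d, 0.41 for Eif3g, 0.22 for Eif3i, 0.29 for Eif3k, 0.29 for Eif4a1, -0.38 for Eif4a2, 0.34 for Eif4ebp1 and 0.25 for Eif5a. Eif4a2 was the negative one.

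For WT less NF110 KO they were -0.36 for Eif1a, -0.37 for Eif1ax, -0.32 for Eif2s1, -0.37 for Eif2s2, -0.52 for Eif3e, -0.39 for Eif3m, -0.41 for Eif4a2, -0.49 for Eif4e, 0.41 for Eif4ebp1 and -0.70 for Eif5. Eif4ebp1 was the positive one, and Eif5 had the largest difference of the 30.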

How the results depend on the processing

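With 2 NF45 libraries a group, or 3 experiments a genotype, the number of calls often rested on single libraries. Leaving out each replicate gave 0 to 17 called members for NF45 KO against NF45 WT, 0 to 9 for NF110 KO less NF90+NF110 KO, 0 to 10 for WT less NF90+NF110 KO and 0 to 13 for WT less NF110 KO. For IP over input it gave 23 to 25 in NF110 KO, 23 to 24 in NF90+NF110 KO and 28 to 29 in WT, and for the inputs 0 throughout. Beside these IP counts stood 3425 to 3793, 4314 to 4731 and 5346 to 5685 of 12693 genes. Beside the 17 members for NF45 KO against NF45 WT stood 5366 of 11481 genes. The 9 for NF110 KO less NF90+NF110 KO stood beside 1427 or 833 of 12693 genes, depending on the experiment left out. The 10 for WT less NF90+NF110 KO stood beside 1176 genes and the 13 for WT less NF110 KO beside 2409. Without the filter on low values 7 members were called in NF45 KO, and 2, 4 and 0 in the enrichment differences NF110 KO less NF90+NF110 KO, WT less NF90+NF110 KO and WT less NF110 KO. Over all genes the counts were then 2847 of 18192, and 320, 214 and 0 of 18789. Without the replicate block of the RIP-seq fit 15, 12 and 18 members were called for IP over input in NF110 KO, NF90+NF110 KO and WT, beside 1865, 2433 and 3491 of 12693 genes. In the enrichment differences 0, 0 and 0 members were then called, beside 1, 0 and 0 genes. With a replicate block, 9 members were called in NF45 KO, beside 2960 of 11481 genes, and 0 in each input comparison. The NF45 libraries form too few pairs to show pairing (r = 0.245), and same-numbered inputs correlated at -0.477 to 0.656, so these numbers were not taken to pair them. DESeq2 called 4 members in NF110 KO and 1 in NF90+NF110 KO inputs against WT, and a term for chromosome 6 gave 5 and 3. Quantile scaling left 1 call for WT less NF90+NF110 KO, beside 135 of 12693 genes. It also turned the sign of Eif4ebp1 for IP over input in NF90+NF110 KO (0.12), and of Eif5a in NF110 KO less NF90+NF110 KO (-0.058) and WT less NF90+NF110 KO (-0.048); these were the only reversals among the called members under the alternatives run. The causes were not tested. At this depth Eif4e1b and Eif4e3 were too low to test in the RIP-seq fit.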
